A study of Homo sapiens with 6 samples.

Results

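The HES and HEY genes encode small transcriptional repressors, and Notch signalling switches on many but not all of them. NRARP is a feedback inhibitor that Notch signalling also switches on. The set comprised HES1, HES2, HES4, HES5, HES6, HES7, HEY1, HEY2, HEYL and NRARP. Members were matched by gene symbol, and all 10 were present among the 31814 genes of the deposited table. Messenger RNA had been sequenced from H69, a human cell line grown in RPMI medium with serum. The vehicle group received DMSO and the TSA group received trichostatin A, an inhibitor of histone deacetylases, at 1 µM. Both groups were collected after 24 h, with 3 libraries each. The treatment tag of the second group reads "HSA treated", while the design text names TSA. A single line was studied, and its labels give no tissue. Nor do they say whether replicate libraries stem from different cultures, and p-values therefore describe the spread of these libraries, which may be technical.

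Notch is a receptor whose intracellular part is cut free when a ligand on a neighbouring cell binds. That fragment joins the DNA-binding protein RBPJ and Mastermind-like coactivators and activates target promoters. HES and HEY proteins are basic helix-loop-helix repressors with an Orange domain. HES proteins recruit TLE corepressors and are known for holding back proneural factors, which drive neuronal and neuroendocrine differentiation. HES6 departs from this scheme, since it opposes HES1 and is found in differentiating neuronal cells.

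Whole reads recovered from the deposited values, which are lower bounds, came to between 22533307 and 26148651 per library. Mitochondrial genes took 4.97% to 12.3% of the TPM (a level scaled per length and library) in vehicle and 7.65% to 16.9% in TSA, with the highest share in TSA library 1. All 9 neuroendocrine markers checked were at 1 TPM or more in every vehicle library. Their sum was 2700 to 3231 TPM in vehicle and 1826 to 1905 TPM in TSA, with 3 higher and 5 lower. CHGA, NCAM1 and SCG3 rose, with log2 fold changes of 0.80, 0.87 and 0.50. INSM1 (-4.59), SCG2 (-1.43), ENO2 (-1.07), CHGB (-0.84) and UCHL1 (-0.53) fell, and SYP did not pass. The part of these markers in the HES and HEY results was not tested. Among markers of other cell types, the 6 fibroblast genes summed to 0.211 to 0.906 TPM in vehicle and 5.34 to 7.20 TPM in TSA, most of it COL1A1. The other 5 were listed at 0 in all vehicle libraries. In TSA, COL1A2, LUM and PDGFRB were above 0 in every library and reached at most 0.309, 0.401 and 0.188 TPM, and COL3A1 and DCN reached at most 0.0197 and 0.0166 TPM. The 4 endothelial genes summed to at most 0.677 TPM in any library. The 4 leukocyte genes summed to 4.08 to 4.92 TPM in vehicle and 4.0003 to 4.95 TPM in TSA, mostly CD14, and LYZ was at or near 0. Of 7 bile duct markers, checked because the name H69 is also in use for another line, the sum ran from 755 to 960 TPM in vehicle and 275 to 388 TPM in TSA. EPCAM and KRT19, which other epithelial cells also express, made up most of it. KRT7 was at 3.93 to 7.00 TPM in vehicle and fell (log2 fold change -1.93), SOX9 rose from 15.9 ± 1.67 to 23.0 ± 2.33 TPM (SD, n = 3 each), and AQP1 did not pass. CFTR was at or below 0.129 TPM throughout, and GGT1 was at or below 0.319 TPM with vehicle and 1.06 TPM with TSA.

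The promoters show which of these genes carry, next to the start, the letters that RBPJ recognises. Windows from 250 bases before to 50 bases after the gene start were taken from RefSeq (GRCh38.p14) for 9 of the 10 genes, and the HEY1 window was not used here. The core motif searched was TGGGAA on both strands, and GTGGGAA, which contains it, was the longer match. Over all 35116 windows of this length, 24.0% held the core at least once, 3.80% held it at least 2 times and 6.25% held the longer match. HES1, HES5, HEY2 and HEYL held 2 matches to the core each and HES4 held 1, while HES2, HES6, HES7 and NRARP held none. The 140 bases before the start are shown for the HES genes with a match, for HEYL, and for HES6 as the most abundant gene without one, 5′ to 3′ on the strand of the gene, with the core in capitals.
HES1: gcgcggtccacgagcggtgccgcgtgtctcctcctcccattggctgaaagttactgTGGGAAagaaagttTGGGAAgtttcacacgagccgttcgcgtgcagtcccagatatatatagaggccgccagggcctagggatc
HES4: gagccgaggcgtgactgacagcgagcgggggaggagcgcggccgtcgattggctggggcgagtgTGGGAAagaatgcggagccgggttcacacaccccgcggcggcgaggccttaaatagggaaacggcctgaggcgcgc
HES5: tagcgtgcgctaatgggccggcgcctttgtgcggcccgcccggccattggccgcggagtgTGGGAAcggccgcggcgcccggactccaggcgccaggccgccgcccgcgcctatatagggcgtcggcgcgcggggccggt
HEYL: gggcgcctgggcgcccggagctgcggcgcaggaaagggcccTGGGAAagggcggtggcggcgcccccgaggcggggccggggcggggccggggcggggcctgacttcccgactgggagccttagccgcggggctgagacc
HES6: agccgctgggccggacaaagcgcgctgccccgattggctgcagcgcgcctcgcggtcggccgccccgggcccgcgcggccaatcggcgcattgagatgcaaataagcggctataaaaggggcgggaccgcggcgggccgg
These stretches are chr3:194136008-194136147 on the + strand for HES1, chr1:1000098-1000237 on the - strand for HES4, chr1:2530264-2530403 on the - strand for HES5, chr1:39639644-39639783 on the - strand for HEYL and chr2:238240039-238240178 on the - strand for HES6. In HES1, HES4 and HES5 the longer match began 85, 77 and 81 bases before the start, on the strand of the gene in all 3. HES1 held a further core match 70 bases before its start. In HEYL the core began 99 bases before the start, and a longer match on the opposite strand lay 178 bases before it, outside the stretch shown. The N-box CACNAG, a site that HES proteins bind, was searched on both strands and occurred 4 times in the HES1 window, against at least 1 time in 38.0% and at least 2 times in 8.94% of all windows. HES2, HES7 and NRARP held the N-box 1 time each, and HES4, HES5, HES6, HEY2 and HEYL did not hold it. A match describes letters and not a bound site.

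**Figure D1:**
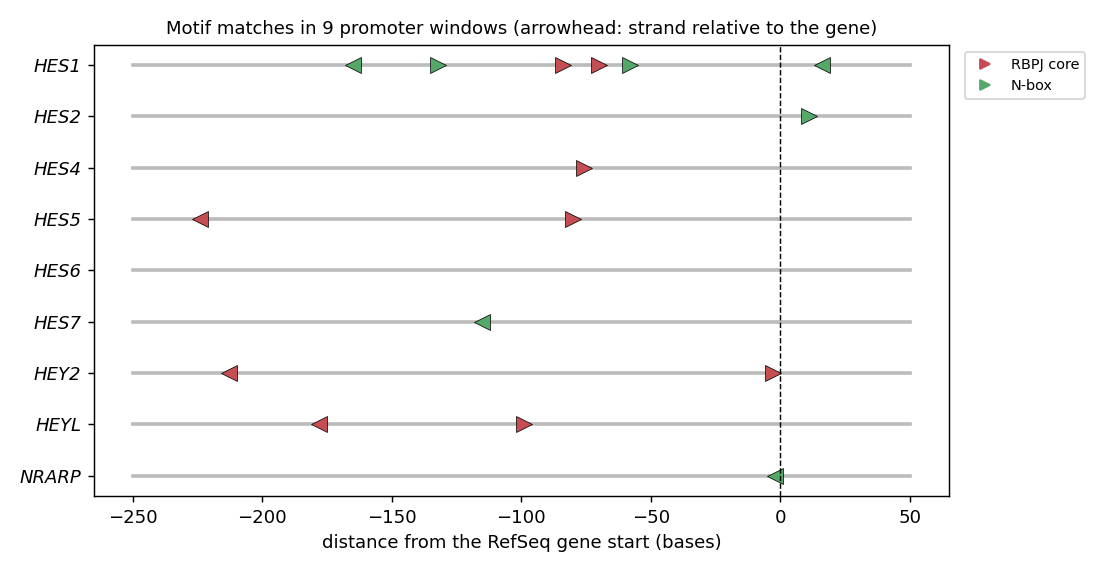
Positions of matches in the promoter windows of 9 genes, with distance from the RefSeq gene start in bases on the x axis; red arrowheads are the RBPJ core and green arrowheads the N-box, pointing right where the match is on the strand of the gene. HES1, HES4 and HES5 hold an RBPJ core at a similar distance, beginning 84, 76 and 80 bases before the start, and the HES6 window holds neither motif.

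The comparison asked what 24 h of TSA did to the transcript levels of these genes. HEYL, HES1 and NRARP were higher in TSA, HEY1 and HES6 were lower, and HES2, HES4 and HEY2 did not pass the test. HES5 and HES7 were too low to be tested. A gene was tested if it reached 1 TPM in at least 3 of the 6 libraries, by limma on log2(TPM + 1) with Benjamini-Hochberg adjustment over all 17596 genes tested and a threshold of 0.05. Of the 8 members tested, 5 passed, which is 62.5%, while 62.2% of all tested genes passed. The count of members called is therefore near the background. By direction 3 of 8 were higher and 2 of 8 lower, against 28.0% and 34.2% of all tested genes. HEYL, among the 3 higher, met the filter only through its TSA libraries. The other 7 reached the filter level in every vehicle library and gave 2 higher and 2 lower. The shares given for all tested genes carry no such restriction. The median log2 fold change of the 8 was -0.15, and that of all tested genes -0.095. The median of the 8 turned to 0.019 after quantile scaling, and was -0.039 after median-of-ratios scaling and -0.029 in the fit of recovered reads. In bulk samples, fewer cells of a type and less RNA per cell cannot be told apart.

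HES1 is the principal HES effector of Notch in many tissues. It was at 14.8, 15.3 and 13.2 TPM in vehicle libraries 1, 2 and 3 and at 28.2, 36.4 and 39.9 TPM in TSA libraries 1, 2 and 3. The groups did not overlap, and even the lowest TSA library stood well above every vehicle library. The mean rose from 14.4 ± 1.08 to 34.8 ± 6.0 TPM (SD, n = 3 each), which is a log2 fold change of 1.20 ± 0.15 (SE, limma adjusted p 0.00049). These values rest on 193 to 582 recovered reads per library.

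HES4 is a human gene close to HES1 in sequence. Its levels were 12.3, 12.96 and 13.9 TPM with vehicle and 6.03, 9.36 and 12.8 TPM with TSA. The vehicle libraries lay close together, while TSA library 3 reached into the vehicle range and TSA library 1 was the lowest of all. The log2 fold change was -0.49 with a 95% interval from -1.08 to 0.098, and it did not pass (limma adjusted p 0.13). Without TSA library 3 it passed (log2 fold change -0.72, limma adjusted p 0.035), and it also passed once trends with transcript length and GC content were removed from each library (-0.65, limma adjusted p 0.0090). The direction was downward in all 19 alternative settings, from -0.72 to -0.23.

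HES2, a further HES family repressor, was at 8.81, 8.04 and 7.73 TPM with vehicle and 8.05, 6.37 and 6.71 TPM with TSA. The groups overlapped. Its log2 fold change of -0.20 had a 95% interval from -0.53 to 0.14 (limma adjusted p 0.26).

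HES5 is the HES gene most closely tied to Notch in neural progenitors. It was scarce in both groups, at 1.72, 0.975 and 1.08 TPM in vehicle and 0.316, 0.103 and 0.865 TPM in TSA. No TSA library reached the lowest vehicle library, but the counts behind these values were small, with 33 recovered reads over the vehicle libraries and 12 over the TSA libraries. The ratio of TSA to vehicle reads, relative to library totals, was 0.367 with an exact 95% Clopper-Pearson interval from 0.172 to 0.729, which covers counting error only. With no filter on low values limma gave a log2 fold change of -0.68 that did not pass (limma adjusted p 0.074). A long non-coding gene, AL139246.5, overlaps HES5 on the opposite strand in GENCODE 29. It was at 0.902, 0.639 and 0.142 TPM in vehicle and 0.968, 3.10 and 2.69 TPM in TSA. No source used here states how strand was handled in counting, and reads of the overlap could belong to either gene.

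HES7, known as an oscillator of the somite segmentation clock, was barely detected. It was at 0.0801, 0 and 0.0756 TPM with vehicle and 0.295, 0.359 and 0.302 TPM with TSA. The 3 TSA libraries were close together and all above vehicle, yet they held only 4, 5 and 4 recovered reads against 1, 0 and 1. The read ratio was 6.56 with an exact 95% Clopper-Pearson interval from 1.48 to 59.8. With no filter on low values, a setting in which 37.7% of genes passed, limma called it higher (log2 fold change 0.33, limma adjusted p 0.0077).

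HES6 was the most abundant of the 10 in every library. It was at 170, 228 and 129 TPM with vehicle and 66.4, 104 and 115 TPM with TSA. The groups did not overlap, but the gap between the lowest vehicle library and the highest TSA library was narrow beside the spread within each group. The mean fell from 176 ± 49.7 to 95.2 ± 25.6 TPM (SD, n = 3 each), which is a log2 fold change of -0.88 ± 0.27 (SE, limma adjusted p 0.028). With 982 to 2918 recovered reads per library, counting error was small beside this spread. The call depended on single libraries. It ended without vehicle library 1 (limma adjusted p 0.066), without vehicle library 2 (0.076) and without TSA library 1 (0.053), as well as with no filter on low values (0.054) and under a median-of-ratios scaling (0.080), while the direction was downward in all 19 alternative settings. The mitochondrial share was 12.3%, 4.97% and 10.1% in vehicle libraries 1, 2 and 3 and 16.9%, 7.65% and 10.4% in TSA libraries 1, 2 and 3. The lowest and the highest HES6 fell in the libraries with the highest and the lowest share, but within neither group did HES6 follow the share in full. With mitochondrial genes left out of the total the log2 fold change was -0.84 (limma adjusted p 0.021), and with length and GC trends removed it was -1.11 (limma adjusted p 0.0034). AC012485.1, which overlaps HES6 on the opposite strand, was at most 0.327 TPM in any library.

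The HEY genes, also called hairy-related factors, act in heart and vessel development and form dimers with HES proteins. HEY1 was at 43.1, 48.8 and 52.1 TPM in vehicle and 25.9, 27.4 and 30.1 TPM in TSA. Every TSA library lay below every vehicle library, with little spread in either group. The log2 fold change was -0.77 ± 0.11 (SE, limma adjusted p 0.00092), from 609 to 1193 recovered reads per library. HEY1 passed in all 19 alternative settings, with a fold change between -0.84 and -0.61.

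HEY2 was at 13.4, 15.3 and 12.6 TPM with vehicle and 11.7, 13.6 and 12.98 TPM with TSA. The groups overlapped, although TSA library 1 lay below every vehicle library and vehicle library 2 above every TSA library. Its log2 fold change was -0.10 with a 95% interval from -0.40 to 0.20 (limma adjusted p 0.52), and its sign turned under a median-of-ratios scaling, a quantile scaling and in the fit of recovered reads. AL365259.1, which overlaps it on the opposite strand, was at most 0.444 TPM.

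HEYL, a relative of HEY1 and HEY2 that is expressed in vascular smooth muscle, was at 0.279, 0.594 and 0.301 TPM in vehicle. In TSA it was at 13.2, 12.0 and 12.8 TPM. The 3 TSA libraries lay close together, with 336 to 359 recovered reads each against 7 to 14 in vehicle. The mean went from 0.392 ± 0.176 to 12.7 ± 0.594 TPM (SD, n = 3 each), a ratio of means of 32.3. On the log2(TPM + 1) scale the change was 3.30 ± 0.15 (SE, limma adjusted p 1.2e-05). That scale compresses low values, and the log2 fold change was 4.75 with a pseudocount of 0.1 and 5.17 in the fit of recovered reads. HEYL entered the test only through its TSA libraries, so it had to differ between the groups to be tested. An antisense gene that overlaps HEYL in GENCODE 29, AL035404.2, was not analysed here.

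NRARP encodes an ankyrin repeat protein that binds the Notch intracellular complex and limits its activity. It was at 16.3, 13.6 and 16.9 TPM in vehicle and 21.0, 26.8 and 27.2 TPM in TSA. All TSA libraries were above all vehicle libraries. The mean rose from 15.6 ± 1.76 to 25.01 ± 3.47 TPM (SD, n = 3 each), which is a log2 fold change of 0.64 ± 0.15 (SE, limma adjusted p 0.0076). It passed in all 19 alternative settings, between 0.40 with length and GC trends removed and 0.82.

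**Figure D2:**
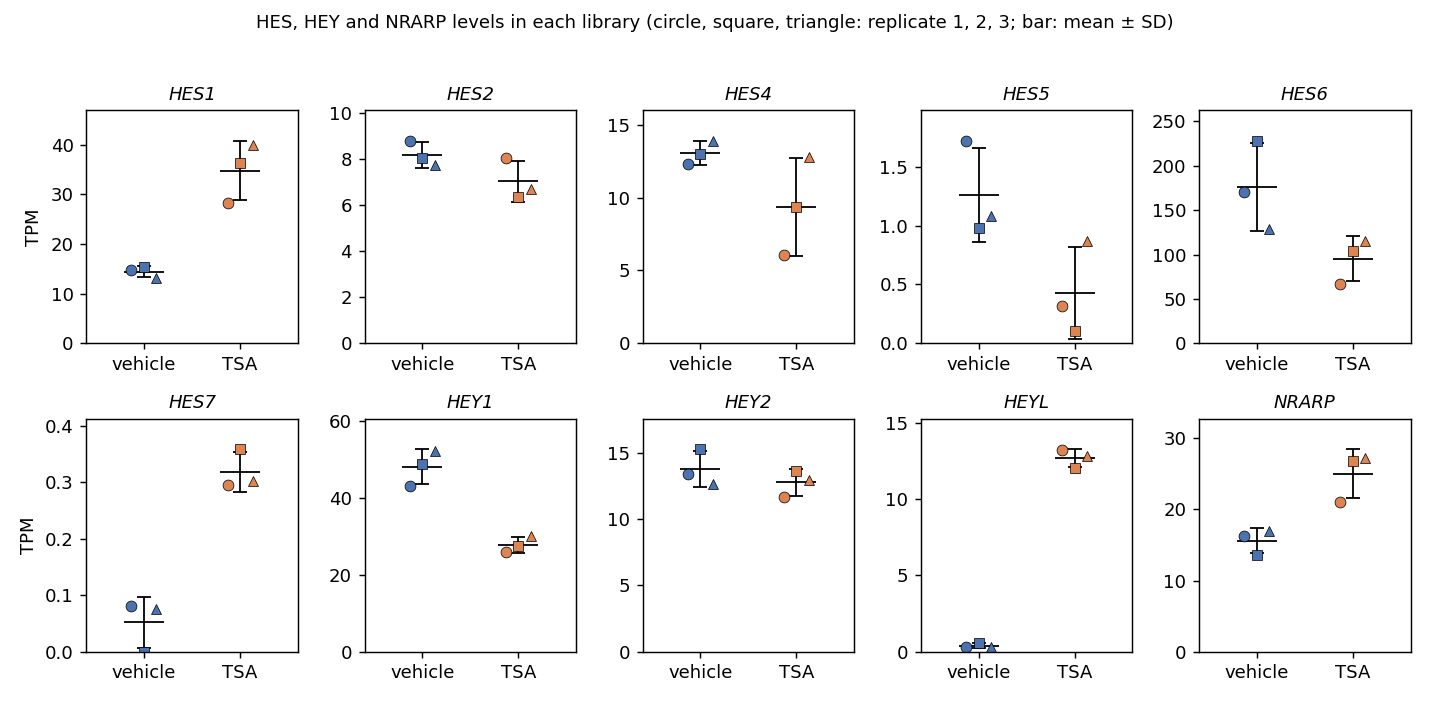
TPM of each gene in each library, with the group on the x axis and a separate linear y axis from 0 for each gene; circles, squares and triangles are replicates 1, 2 and 3, and the black bars give mean ± SD (n = 3). HEYL goes from at most 0.594 TPM in vehicle to at least 12.0 TPM in TSA, while HES2, HES4 and HEY2 overlap between the groups.

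Groups without overlap were seen for 5 of the 8 tested members, where 67.0% of all tested genes showed the same. HES5 and HES7 also did not overlap, but on few reads, and no such share was worked out for genes under the filter. The 5 include HEYL, which was tested only through its TSA libraries. TSA library 1 held the lowest TSA value for 7 of the 10 genes, namely HES1, HES4, HES6, HES7, HEY1, HEY2 and NRARP, and the highest for HES2 and HEYL. TSA library 3 held the lowest value for 0 of the 10. How often TSA library 1 was the lowest over all genes was not worked out, so this order is not shown to be particular to the members. The part of the mitochondrial share of TSA library 1 in this order was not tested.

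**Figure D3:**
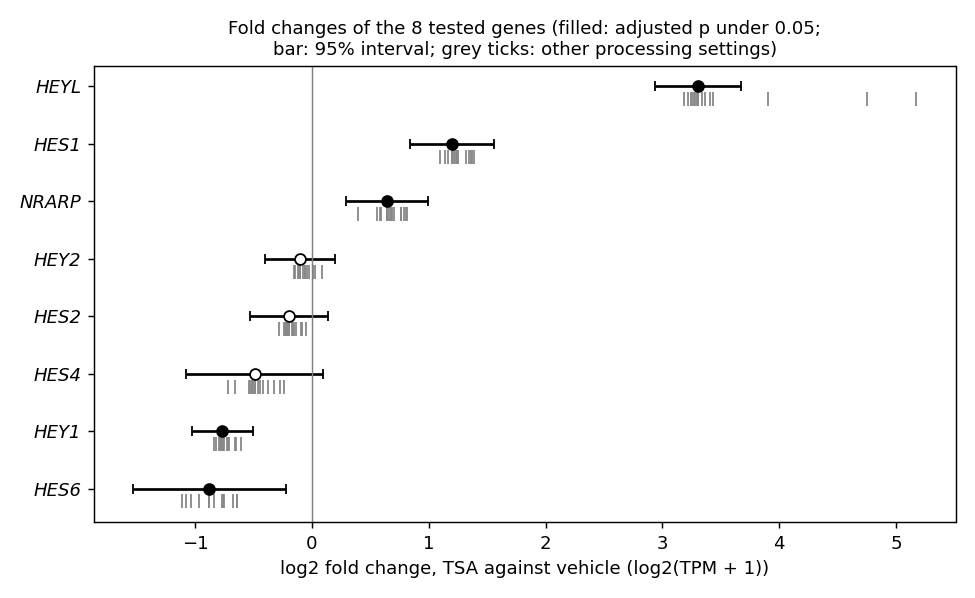
Log2 fold change of the 8 tested genes in TSA against vehicle, with the log2(TPM + 1) change on the x axis; points with bars are the estimate and its 95% interval, filled where the adjusted p is under 0.05, and grey ticks are the same gene under other settings, some of them on other scales. HEYL stands at 3.30, HES1 at 1.20 and NRARP at 0.64, and the ticks of HEY2 fall on both sides of 0.

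TPM is scaled per length, so levels of these genes were set side by side, and their order rests on the gene lengths behind the TPM. HES4, above HES2 in both groups by mean TPM, had 49 to 110 recovered reads per library against 257 to 318 for HES2. In vehicle the order of mean TPM was HES6, HEY1, NRARP, HES1, HEY2, HES4, HES2, HES5, HEYL and HES7. NRARP and HES1, HES1 and HEY2, and HEY2 and HES4 overlapped as neighbours in that order, and the other neighbours did not. In TSA the order was HES6, HES1, HEY1, NRARP, HEY2, HEYL, HES4, HES2, HES5 and HES7. There HES6 stood apart from HES1, NRARP from HEY2 and HES2 from HES5, while all other neighbours overlapped. HEYL moved from the ninth place to the sixth, level with HEY2.

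The sum over the 9 HES and HEY genes was 264, 330 and 230 TPM in vehicle and 160, 210 and 231 TPM in TSA, so the groups overlapped. The sum without HES6 was 94.5, 102 and 101 TPM in vehicle and 93.6, 106 and 116 TPM in TSA, also with overlap. What differed was the make-up of the sum. HES6 contributed 64.3%, 69.1% and 56.1% of it in vehicle and 41.5%, 49.7% and 49.7% in TSA. The share of HES1 was 5.60%, 4.63% and 5.74% in vehicle and 17.6%, 17.3% and 17.2% in TSA. HEYL went from at most 0.180% to between 5.54% and 8.24%. The ratio of HES6 to HES1, the antagonist to the repressor, was 11.5, 14.9 and 9.77 in vehicle and 2.36, 2.87 and 2.88 in TSA, with no overlap. Within the HEY genes, HEYL was 0.463% to 0.920% of the summed TPM in vehicle and 22.6% to 26.0% in TSA. These sums and ratios combine genes already tested and were chosen after their values were seen, so they carry no test.

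**Figure D4:**
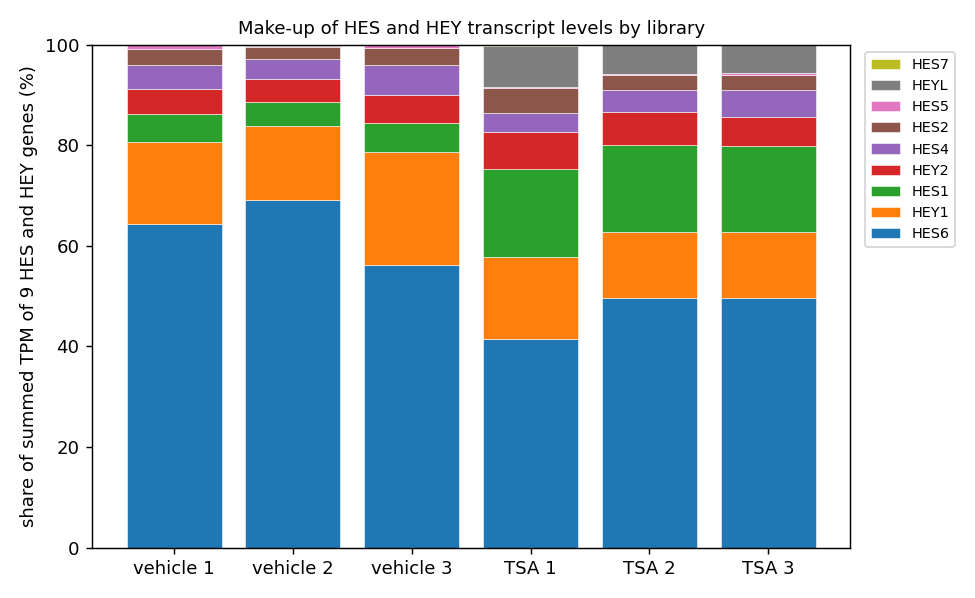
Share of each gene in the summed TPM of the 9 HES and HEY genes, in percent on the y axis, for each library on the x axis; each colour is a gene. The HES6 part covers 56.1% to 69.1% of the vehicle bars and 41.5% to 49.7% of the TSA bars, and the HES1 part is broader in all 3 TSA bars.

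The authors' deposited table gives a log2 fold change and an adjusted p (FDR) from their own fit of the same libraries. An FDR under 0.05 was given to 6 of the 10 genes in the authors' deposited table, against 41.3% of all its 31814 genes. These shares are not at like expression, since only 17596 of the 31814 genes passed the filter used here, but 8 of the 10 members did. The 6 were HEYL (5.08), HES1 (1.35), HES7 (2.45), NRARP (0.76), HES6 (-0.80) and HEY1 (-0.71), by the log2 fold changes of the authors' deposited table. The authors' deposited table gave HES5 a log2 fold change of -1.47 at an FDR of 0.055, and HES4, HES2 and HEY2 an FDR of 0.35, 0.57 and 0.94. Signs of the members were the same in both analyses.

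The Notch pathway around these genes was read from lists chosen with earlier results of these data known. Over 9 lists, 75 entries were tested, 18 were higher and 33 lower, so that 68.0% passed, against 62.2% of all tested genes. Of the 4 receptors 3 were tested and all 3 rose. NOTCH3 was at 0.153, 0.0905 and 0.193 TPM in vehicle and 3.54, 3.06 and 3.72 TPM in TSA (log2 fold change 1.95), and NOTCH1 rose by 2.25 on the log2 scale. Both entered the test only through their TSA libraries. NOTCH2 was at 16.3, 9.18 and 13.6 TPM in vehicle and 48.4, 23.4 and 23.1 TPM in TSA (log2 fold change 1.17, limma adjusted p 0.020). Its call ended without vehicle library 2 (limma adjusted p 0.058) or without vehicle library 3 (0.051). NOTCH4 stayed below the filter, at 0.564 ± 0.0618 and 0.132 ± 0.0167 TPM (SD, n = 3 each). Its groups did not overlap. With no filter on low values all 4 receptors were tested, and 3 were called higher and 1, NOTCH4, lower. The shared direction of the receptors therefore depended on the filter.

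Of the 8 ligand genes 2 were higher and 4 lower, with a median log2 fold change of -0.71. Median-of-ratios scaling left 3 lower, and the fit of recovered reads called 3 each way. DNER, a non-canonical ligand of neurons, rose by 3.51 to 23.3 ± 1.38 TPM, and DLL1, a canonical ligand, changed by -3.09. DLK2, a non-canonical ligand that can inhibit Notch, changed by -2.47 and JAG2 by -1.05. Besides DNER, JAG1 was called higher, from a mean of 77.8 to 109.6 TPM (log2 fold change 0.48, limma adjusted p 0.016). Without vehicle library 3 only 1 ligand gene, DNER, was called higher. JAG1 has 2 identifiers in the table, and the one used was ENSG00000101384.7.

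Of 20 tested genes of receptor processing and trafficking 6 were higher, 5 lower and 9 not called, with a median of 0.0027, and removal of length and GC trends gave 8 higher and 6 lower. MFNG, a glycosyltransferase that modifies Notch, rose by 1.61 and NUMBL, a relative of the Notch inhibitor NUMB, by 1.10. The ubiquitin ligase genes NEURL1B and ITCH changed by -1.10 and -1.08. MFNG was under 1 TPM in vehicle and was tested only through TSA.

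Of 12 genes of the nuclear complex 1 was higher and 6 lower, with a median of -0.61. Removal of length and GC trends gave 2 higher, 5 lower and a median of -0.37. The coactivator genes MAML2 and MAML1 changed by -2.31 and -1.12, and the acetyltransferase genes CREBBP and KAT2A by -2.03 and -0.97. RBPJ, named after its values were seen because it recognises the motif shown above, was at 59.2, 53.7 and 65.4 TPM in vehicle and 43.6, 37.7 and 33.2 TPM in TSA, a log2 fold change of -0.63 (limma adjusted p 0.0050). Of 17 corepressor genes 2 were higher and 9 lower, and 4 and 9 after quantile scaling. The median log2 fold change of this list was -0.66. AES, a short relative of the TLE corepressors, changed by -2.77, CTBP2 by -1.97 and TLE3, a partner of HES proteins, by -1.49. HDAC3 rose by 1.57. With length and GC trends removed the median of the corepressors was -0.16.

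Of 4 tested genes from a list of other Notch-activated genes 3 rose and 0 fell, and 1 was called lower with no variance trend and with length and GC trends removed. DTX4 rose by 1.74 and MYC by 1.73, and SOX9 rose by 0.50, a call that ended without TSA library 3 (limma adjusted p 0.053). DTX4 was under 0.2 TPM in every vehicle library and so was tested only through TSA. DTX1, named after its values were seen, did not pass at 4.51 ± 0.301 and 3.38 ± 0.388 TPM (limma adjusted p 0.085).

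The list of proneural and related basic helix-loop-helix factors, not all of them known as HES targets, moved in both directions. Of 3 tested 2 fell and 1 rose, with a median log2 fold change of -2.49. With no filter on low values 12 were tested, of which 6 rose and 2 fell, for a median of 0.21. Leaving out mitochondrial genes gave 2 each way and a median of -0.70. ASCL2 changed by -2.62 and NEUROG2 by -2.49, whereas NEUROD4 rose by 2.82, from 5.93 ± 2.02 to 46.8 ± 3.92 TPM (SD, n = 3 each). Of 7 ID and E protein genes, which encode the inhibitors and the dimer partners of basic helix-loop-helix factors, 6 were lower and 0 higher. Quantile and median-of-ratios scaling each left 4 of them lower. The E protein genes TCF4, TCF12 and TCF3 changed by -3.16, -2.30 and -0.73, and ID4 by -0.96. BHLHE40, a related Orange-domain repressor outside the HES and HEY set, changed by -2.08.

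**Figure D5:**
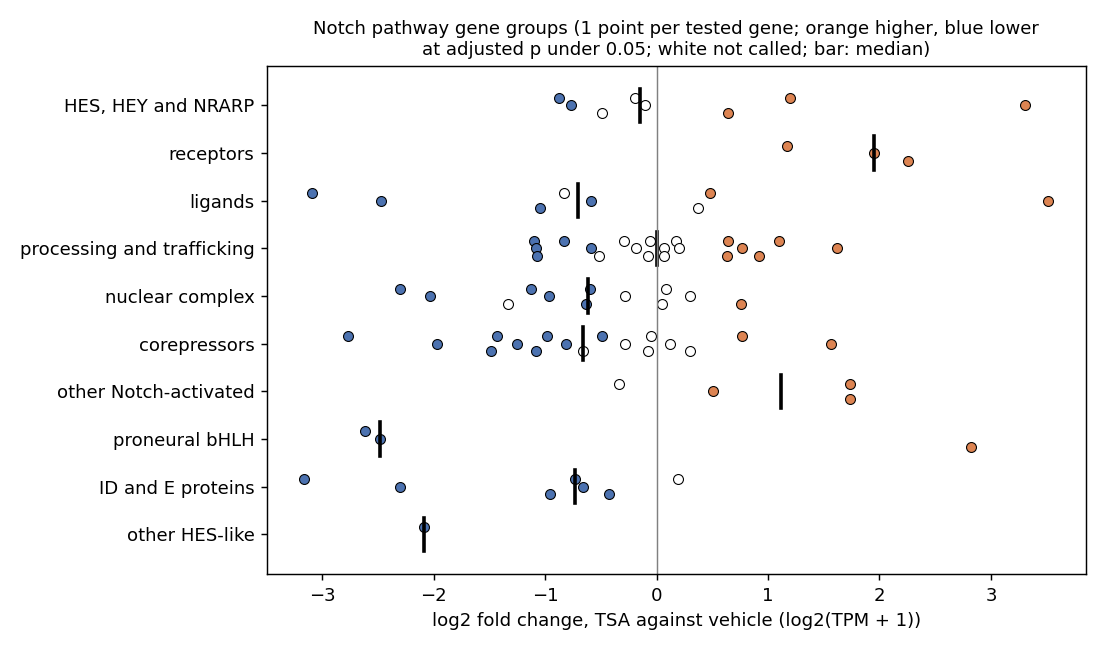
Log2 fold change of each tested gene, on the log2(TPM + 1) scale on the x axis, for 10 gene groups on the y axis; orange and blue points passed the test as higher and lower in TSA, white points did not pass, and black bars are medians. The HES, HEY and NRARP points spread from -0.88 to 3.30, all 3 tested receptors lie to the right of 0, and DNER lies at 3.51.

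Genes with the most similar pattern were sought for the 3 members with the highest mean TPM, by Pearson's r of log2(TPM + 1) over the 6 libraries among 14190 genes. HES6 was most like NDUFB8 (r = 0.998) and EEF1A1P5 (r = 0.995), HEY1 most like SOX12 (r = 0.999) and HMGB1P8 (r = 0.999), and HES1 most like LRWD1 (r = 0.999) and SPATA2L (r = 0.999). These values describe 6 libraries that share the treatment split, and r exceeded 0.95 for 2015 genes with HEY1 and 1900 with HES1, but for 142 with HES6. NDUFB8 and EEF1A1P5 did not pass the test themselves (log2 fold change -0.35 and -0.48, limma adjusted p 0.051 and 0.072). Within each group their libraries ranked in the same order as those of HES6. EEF1A1P5 and HMGB1P8 are named as pseudogenes, and their values are uncertain where reads are shared with the parent genes.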

How the data were processed

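Polyadenylated RNA was sequenced as 6 libraries with a stranded kit, per the labels. Listed without roles or order in the submitters' processing notes are hg19, edgeR, featureCounts, STAR 2.5.3a, Picard 1.127 and FastQC 0.11.2. The authors deposited TPM per GENCODE 19 gene. The authors' deposited table holds their log2 fold change and log2 level, a likelihood ratio score, and a p-value and FDR, per the file headers. No source used here gives the strand setting.

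The members and lists were chosen with earlier results of these data known. Groups came from the labels. The test was limma 3.58.1 in R 4.3.3 (eBayes with trend, two-sided) on log2(TPM + 1), over every gene that reached 1 TPM in 3 or more libraries. It was tested on simulated data, where the share of false calls was above the nominal rate and 2-fold changes were missed more often than 4-fold ones. The simulation changed far fewer genes than were called here. It gave every gene the same relative spread and the libraries no difference beyond depth and treatment. Its rates therefore need not hold for these data. Whole reads were recovered as the smallest whole numbers in the ratios of TPM values between libraries, within a relative tolerance of 1e-09, for all 27644 genes above 0 in at least 2 libraries. Named were all members, up to 4 called genes of each list with the greatest change, and the genes most like the 3 most abundant members. Of the list genes, NEURL1, PTCRA, NEUROD1 and PTF1A were not analysed here. Some genes fixed for the lists are not reported here and were left out of their counts. Same-numbered libraries of the groups deviated from their group means with correlations of 0.633, 0.590 and -0.073. Crossed, vehicle 2 with TSA 1 gave -0.645 and vehicle 1 with TSA 2 gave -0.584. With 3 libraries per group these values cannot settle whether the numbers pair the libraries. The main test left the number out. Alternatives were pseudocounts, filters, scalings, variance priors, a replicate block, left-out libraries, mitochondrial genes left out, limma's voom on recovered reads, and removal of length and GC trends (GENCODE 29, 95.4% of tested genes with a value).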

Additional observations from a re-analysis of the deposited data

How the results depend on the processing

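HES1, HEYL and NRARP were called higher and HEY1 lower under all 19 alternative settings. The other calls depended on the setting. The number of members called lower, 2 in the main analysis, was 1 with no filter on low values, 1 under a median-of-ratios scaling and 1 without both replicate 1 libraries, and ranged from 1 to 3 when each library was left out in turn. The number called in either direction ranged from 4 to 6 over the left-out libraries, and all genes called from 9446 to 11562. HES6 was called in 13 of 19 settings, with an adjusted p from 0.0034 to 0.090, and HES4 in 3 of 19. HEY2 turned to a log2 fold change of 0.013 under a median-of-ratios scaling, 0.091 under a quantile scaling and 0.029 in the fit of recovered reads. These scalings moved the median of all tested genes from -0.095 to 0.0085, 0.0079 and 0.021, and the share of called genes that were higher from 45.0% to 50.1%, 50.4% and 50.8%. With the replicate number as a block 6 members were called, HES4 being the addition (adjusted p 0.049), and 12485 genes in all. Not every library correlated best with its own number across the groups. Low read numbers limit what can be said of HES5 and HES7.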

Other observations

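Several bHLH genes of the lists lay under the filter in at least one group and were not tested. HES3, the HES gene outside the set described, was at 0.430, 1.14 and 1.62 TPM in vehicle, from 15 recovered reads over the 3 libraries, and was listed at 0 in all 3 TSA libraries. ATOH1, a proneural factor that HES proteins repress, reached 0.817, 0.682 and 0.718 TPM in TSA, while the vehicle libraries list it at 0. OLIG2, a factor of the oligodendrocyte and motor neuron lineage, was likewise at 0 in vehicle and measured 0.821, 0.680 and 0.758 TPM in TSA. ATOH7, a proneural factor of the retina, measured 0.403, 0.214 and 0.0950 TPM with vehicle against 0.926, 1.90 and 1.90 TPM with TSA, without overlap. BHLHE41, the closest relative of BHLHE40, measured 0.116 ± 0.0822 TPM with vehicle against 0.521 ± 0.126 TPM with TSA (SD, n = 3 each). These genes were chosen after their values were seen.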
